A study of Mus musculus with 122 samples.

Results

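CLC is a chimera in which the zinc fingers of CTCFL are flanked on both sides by the terminal regions of CTCF. RNA-seq was performed on mouse embryonic stem cells of 1 line that were untreated (CLC U) or given doxycycline to induce CLC while their own CTCF was still present (CLC D). Members were chosen by their sample labels, and they are 4 RNA-seq libraries, 2 per group, of 122 samples in the series and 38 RNA-seq libraries. The question was what the chimera does to gene expression beside CTCF, which the study asked to learn what the zinc fingers and the terminal regions each contribute.

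All cells were E14Tg2a (129/Ola, XY), carried CTCF-AID and Tir1, and held a Flag-CLC-mRuby 2 transgene at the Tigre locus, in U as well as in D. The degron on CTCF is degraded only when auxin (IAA) is added. They grew without feeders in serum and LIF with CHIR99021, which blocks GSK3, and PD0325901, which blocks MEK. D received 1 µg/ml of Dox. The sample labels give 24 h for D and no time for U, and the treatment protocol gives 2 days, so the time is uncertain. The other libraries of the line, used below for comparison, were given 500 µM IAA alone (CLC I) or IAA with Dox (CLC ID), 2 each. Per the methods, transgenic cells were expanded from picked colonies, and how many clones stand behind the CLC libraries is not stated. Nothing in the labels says that replicates are separate cultures, so p-values measure the spread between these libraries only. In bulk RNA, fewer cells of a type and less RNA per cell cannot be told apart.

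CTCF binds DNA through its zinc fingers, and its N terminus holds up cohesin as loops are extruded. This stops loops at its sites and insulates neighbouring domains. CTCFL (BORIS) is its paralog, with closely related zinc fingers but unrelated terminal regions, and is normally restricted to male germ cells, where it activates testis genes. In embryonic stem cells CTCFL is nearly silent, and pluripotency is kept by Pou5f1, Sox2 and Nanog.

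Whole reads recovered from the deposited values numbered 36822321 and 26349345 in the libraries of CLC U, and 31679618 and 38182214 in those of CLC D. The untreated pair stood apart from every other pair. Over 15103 genes with at least 20 reads in both libraries together, the chi-square of their counts was 1.36 per degree of freedom, where counting error alone gives about 1. In 24 other pairs of replicates of the 4 transgene lines it ranged from 2.94 to 47.8, and it was 17.4 for the pair of CLC D. Among genes with at least 2000 reads it was 1.31 in CLC U and between 5.47 and 111 in the others. The libraries of CLC U thus differed by little more than counting error, and the labels do not say whether they came from 1 culture or 1 RNA sample. The total counts of called genes are therefore given also with both untreated libraries counted as 1 sample. Counts within lists, at binding sites and across other comparisons rest on calls made with 2 untreated libraries.

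**Figure D1:**
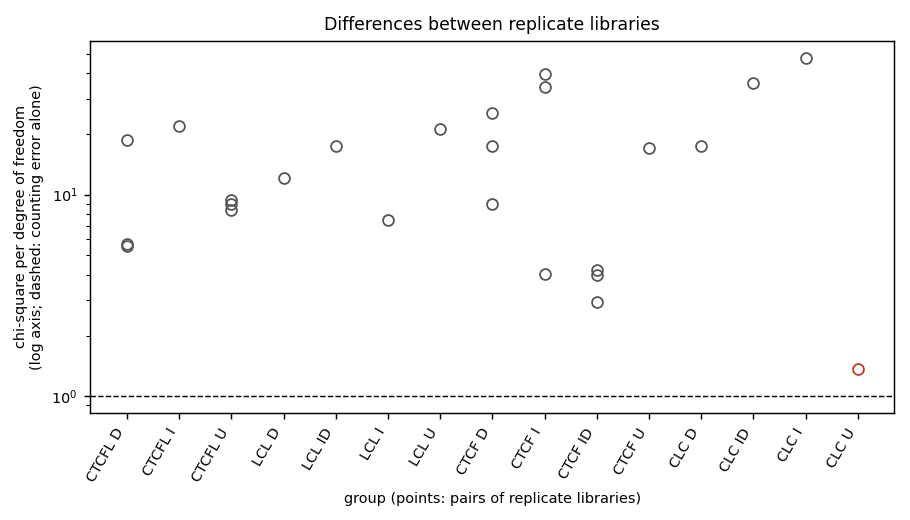
Chi-square per degree of freedom (log axis) between the read counts of replicate libraries, 1 point per pair, for 15 groups with recovered reads. The dashed line marks counting error alone; the pair of CLC U lies at 1.36 and the 24 other pairs between 2.94 and 47.8.

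The transgene was checked first. Ctcfl (ENSMUSG00000070495, chromosome 2 from 173093609 to 173119525 in GRCm38) had a normalized read count of 41.4 and 42.7 in CLC U and of 1791 and 1829 in CLC D. It is also the gene with the largest rise, by 5.40 ± 0.15 on the log2 scale (± standard error; limma, adjusted p = 1.90e-06). In CLC I it stood at 81.4 and 82.4, and in CLC ID at 3441 and 2544. Every library with Dox was far above every library without it. Reads of the zinc finger part of the transgene and of the endogenous gene cannot be told apart by symbol.

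Ctcf (ENSMUSG00000005698, chromosome 8 from 105636568 to 105682922) had a normalized read count of 8460 and 8319 in CLC U and of 10079.6 and 10162 in CLC D. Both Dox libraries were above both untreated ones, as in 33.3% of all tested genes. The change of 0.27 ± 0.12 on the log2 scale did not pass (limma adjusted p = 0.18). The terminal regions of the transgene are those of CTCF, so their reads may be counted here.

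Dox changed few genes in this line. Of 15337 genes with a mean of at least 10 over the 8 libraries, 54 were called higher in D (0.352%) and 38 lower (0.248%), by limma on log2(value + 1) with a change of over 1 on the log2 scale and an adjusted p below 0.01. The rises were larger than the falls. The median size of the called changes was 1.46 on the log2 scale among genes that were higher and 1.24 among genes that were lower, and the called genes started from different levels, with a median of 84.0 normalized reads in CLC U for the former and 506 for the latter. Of the 54, 46 were protein-coding, and of the 38, 37 were. Predicted symbols made up 6 and 1 of them.

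These counts depend on how the untreated pair is treated. With CLC U counted as 1 sample, only Ctcfl passed in the same fit, and 22 genes passed at an adjusted p under 0.05 with the same fold, all of them among the 92. In that setting DESeq2 on recovered reads called 69 higher (0.45%) and 40 lower (0.261%), with 85 of the 92 among them, and limma over all 4 lines in 1 fit called 104 higher and 45 lower, with 71 of the 92 among them. Of the 15337 genes, that last fit called 0.665% higher and 0.267% lower. Leaving out any 1 of the 4 libraries kept the direction of all 92 genes and a log2 fold change over 1 in 45 of the 54 and 30 of the 38. It left 2 genes higher without D replicate 1, 1 higher without each of the other 3 libraries, and 0 lower. The spread between replicates was unequal, with a median SD on the log2 scale of 0.049 in CLC U, 0.097 in CLC D, 0.19 in CLC I and 0.13 in CLC ID, and all 4 groups share 1 estimate in the fit. Without the libraries of CLC I, 116 genes were higher and 80 lower.

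**Figure D2:**
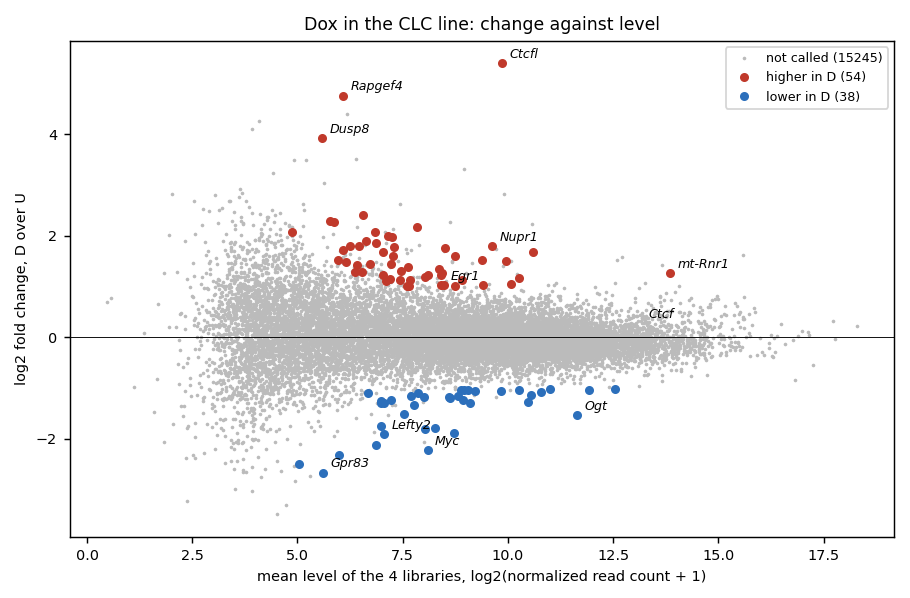
Log2 fold change of D over U against the mean level of the 4 libraries, log2(normalized read count + 1), for 15337 genes of the CLC line. Red points are the 54 genes called higher and blue points the 38 called lower; Ctcfl, Rapgef4 and Dusp8 lie highest, and Ctcf lies near 0 at a log2 fold change of 0.27.

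After Ctcfl, the largest rises were of genes that were nearly silent in untreated cells. Rapgef4, an exchange factor for the small GTPase Rap that is activated by cyclic AMP, had 5.91 and 2.37 normalized reads in CLC U and 145 and 115 in CLC D (log2 change 4.75 ± 0.47, limma adjusted p = 0.0024). Dusp8, a phosphatase of the stress-activated MAP kinases, went from 6.75 and 3.56 to 93.0 and 85.5 (log2 change 3.92 ± 0.35, adjusted p = 0.0015). Neither gene's groups came near each other.

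Hspa1a, which encodes an inducible HSP70 chaperone, had 30.4 and 27.3 normalized reads in CLC U and 162 and 154 in CLC D, a log2 fold change of 2.41. It shares most of its sequence with Hspa1b, so reads may be split between them. Gadd45g, a stress sensor that binds MAP3K4, had 26.2 and 13.1 in CLC U and 80.4 and 108 in CLC D, a log2 fold change of 2.27. Svop, which encodes a synaptic vesicle protein, went from 79.4 and 85.4 to 353 and 401. Both are clear of their untreated values.

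The other genes among the 12 largest rises were regulators, a ligand, an adaptor, a transporter and a noncoding RNA. Bhlhe41, a repressor of the circadian clock, had 46.4 and 40.3 normalized reads in CLC U and 180 and 188 in CLC D. Lbx1, a homeobox factor of muscle precursors and spinal interneurons, had 10.97 and 9.49 against 46.5 and 45.9, and Wnt7b, a Wnt ligand, had 55.7 and 55.8 against 213 and 238. Tap1, which carries peptides to MHC class I, had 64.2 and 56.9 in CLC U and 264 and 216 in CLC D. The noncoding RNA Lockd and the adaptor Sla rose by 1.89 and 2.28 on the log2 scale. In each of these genes both Dox libraries lay above both untreated ones, which was a condition for choosing them.

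**Figure D3:**
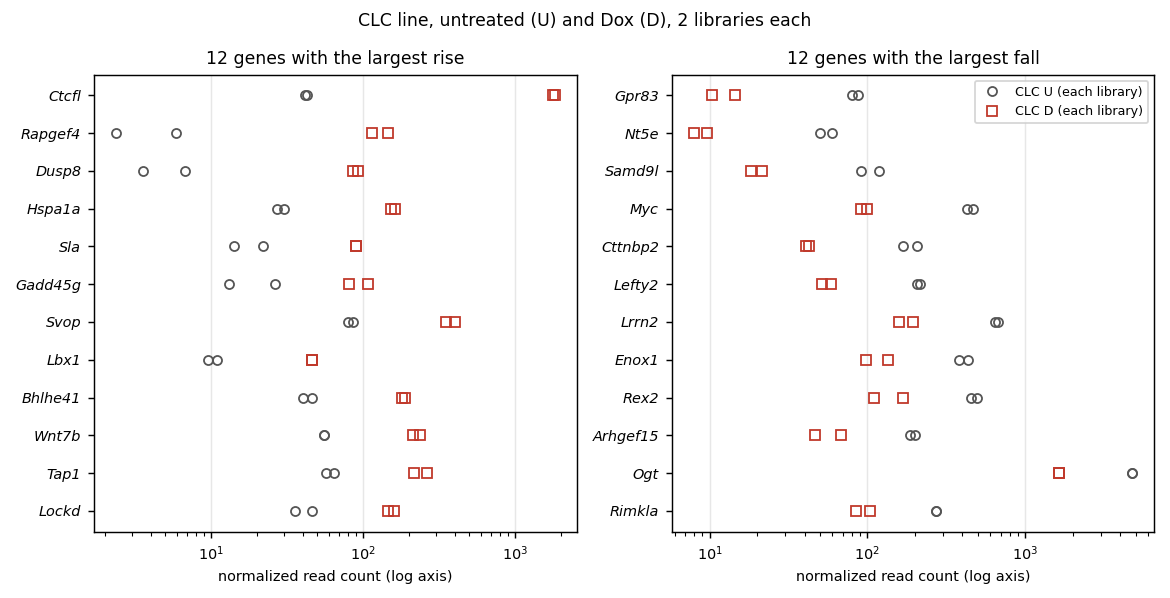
Normalized read counts (log axis) in each of the 2 libraries of CLC U (circles) and CLC D (squares) for the 12 genes with the largest rise and the 12 with the largest fall among called genes with named symbols. In none of the 24 genes do the groups overlap, which was a condition for choosing them. Ctcfl moves from 41.4 and 42.7 to 1791 and 1829.

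Among the falls, Myc, the growth-promoting transcription factor that stem cells in LIF depend on, had 469 and 431 normalized reads in CLC U and 98.8 and 91.0 in CLC D (log2 change -2.23 ± 0.16, limma adjusted p = 0.00084). Ogt, which adds O-GlcNAc to nuclear proteins and is essential in stem cells, was the most abundant of the 12 and went from 4778 and 4781 to 1644 and 1629 (log2 fold change -1.55). Lefty2, a secreted inhibitor of Nodal, went from 206 and 215 to 59.1 and 51.5. All 3 genes fell well below the untreated range.

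The deepest falls by fold were of low genes. Gpr83, a G protein-coupled receptor, had 87.8 and 79.5 normalized reads in CLC U and 14.5 and 10.3 in CLC D, and its log2 fold change was -2.67. Nt5e, the ecto-nucleotidase CD73, had 59.9 and 49.8 against 9.69 and 7.92. Samd9l, an interferon-induced restraint on growth, had 91.2 and 119 against 18.4 and 21.4. Cttnbp2, Lrrn2, Enox1, Rex2, Arhgef15 and Rimkla fell by between 1.52 and 2.14 on the log2 scale. Of the 24 genes with the largest changes, Sla, Gpr83, Nt5e, Samd9l and Enox1 did not pass over all 4 lines with CLC U counted once, and Nt5e did not pass by DESeq2 in that setting (adjusted p = 0.01, just above the threshold).

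Only 11 of the 92 called genes belong to any of 30 lists of pathways, families and cell types, and 9 lists held a called gene. The immediate early genes, which respond to growth factor and stress signals without new protein, held the most. Of 19 tested members, 3 rose and 1 fell, against 0.6% called among all genes, and the median log2 fold change was 0.32, against -0.018 over all genes. Fos went from 200 and 202 normalized reads to 522 and 446, Egr1 from 236 and 231 to 502 and 450, and Atf3 from 27.9 and 34.4 to 78.5 and 104. Myc was the member that fell. With CLC U counted once none of these 4 passed in the same limma fit (adjusted p = 0.059 for Fos, 0.11 for Egr1, 0.11 for Atf3 and 0.024 for Myc), and all 4 passed by DESeq2 and by limma over all 4 lines. Jun had 64.2 and 55.8 in CLC U and 173 and 117 in CLC D, and did not pass by limma (adjusted p = 0.017), while DESeq2 called it (adjusted p = 0.00027). The groups of Fos, Egr1, Atf3 and Jun did not overlap, which holds for 33.3% of all tested genes in the upward direction.

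In the integrated stress response, limma called 1 of 23 tested members, Nupr1, a stress-induced chromatin protein, from 379 and 330 normalized reads to 1286 and 1166, while the list's median log2 fold change was 0.23. In 13 of the 23 both Dox libraries lay above both untreated ones, against 33.3% of all tested genes. DESeq2 called 2 of the 23 higher, and over all tested genes it called 175 higher and 83 lower. Among 14 heat shock chaperones only Hspa1a rose and the median was -0.068. None of 19 p53 targets passed by limma. In 11 of them both Dox libraries lay above both untreated ones, against the same 33.3% of all tested genes. Their median was 0.23, with Cdkn1a at 7162 and 7367 in CLC U and 7644 and 7757 in CLC D. Trp73, a relative of p53 that belongs to no list, rose from 177 and 157 to 581 and 543.

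In signalling lists limma called 2 genes, and both fell. Notum, a secreted enzyme that inactivates Wnt ligands, went from 174 and 179 normalized reads to 71.7 and 75.2 and was the only called gene of 11 tested Wnt targets, whose median log2 fold change was -0.32. Lefty2 was the only one that limma called of 16 tested genes of Nodal and TGF-beta signalling, where DESeq2 called 1 higher and 1 lower. None of 11 genes of MAPK feedback passed by limma and 1 was lower by DESeq2, and Spry4, an inhibitor of receptor signalling, stood at 218 and 214 in CLC U and 88.2 and 81.5 in CLC D (adjusted p = 0.049 from limma). None of 13 tested Notch genes passed by limma, and DESeq2 called 1 lower. Over all tested genes DESeq2 called 175 higher and 83 lower.

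None of 20 naive pluripotency genes passed. Of these, 12 were lower in both Dox libraries than in both untreated ones, as 37% of all genes were, their log2 fold changes lay between -0.51 and 0.14, and their summed level was 346543 to 348895 normalized reads in CLC U and 324171 to 329581 in CLC D. Pou5f1 had 29660 and 30211 in CLC U and 27706 and 31854 in CLC D, so the libraries express the defining markers of their label. Otx2 and Dnmt3b, which mark the primed epiblast, had log2 fold changes of -0.61 and -0.59 and did not pass (adjusted p = 0.014 and 0.011 from limma).

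Markers of other cell types gave no called gene. The summed level of 13 primitive endoderm markers was 13427 to 13434 in CLC U and 14604 to 14790 in CLC D, and that of 11 neural markers 6544 to 6680 and 5150 to 5395. Lama1, Lamb1, Col4a1 and Col4a2 made up most of the former. Tubb3 made up most of the latter, at 4391 and 4279 in CLC U and 2834 and 2550 in CLC D. Of 7 tested neural markers 3 lay above and 2 below the untreated range, with a median log2 fold change of 0.32. For 10 mesendoderm markers it was 448 to 475 and 496 to 518, for 10 trophoblast markers 3062 to 3106 and 3350 to 3467, and for 8 fibroblast markers 550 to 562 and 587 to 666. The 17 genes of the 2-cell stage summed to 8152 to 8164 and 7719 to 7951. Nearly all of that was Eif1a, at 8130 and 8132 in CLC U and 7673 and 7911 in CLC D. The sum therefore says little about the other members, which were near 0. Among these lists 2 mesendoderm, 1 neural, 2 fibroblast and 3 2-cell stage markers were at 0 in all 4 libraries. Whether small shares of such cells had a part in any change was not tested.

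Of 16 genes that CTCFL is known for in testis and cancer, 13 were tested. In the fit of the CLC line 0 were called, as by DESeq2, and the median log2 fold change was 0.37. Stra8, which starts meiosis, had 1398 and 1388 normalized reads in CLC U and 1999.7 and 1919 in CLC D (log2 fold change 0.49, adjusted p = 0.038 from limma). Prss50, a testis serine protease, had 22.0 and 23.7 against 60.1 and 54.6 (adjusted p = 0.063), and Dll1, a Notch ligand, 21.1 and 9.49 against 37.8 and 42.7 (adjusted p = 0.059). Their log2 fold changes were 1.29 and 1.44. In none of these 3 genes did the groups overlap, which in the upward direction holds for 33.3% of all tested genes.

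Cited1 had 18.6 and 24.9 in CLC U and 52.3 and 56.2 in CLC D (log2 fold change 1.29, adjusted p = 0.041 from limma). With all 4 lines in 1 limma fit Dll1 (adjusted p = 0.00044), Cited1 (8.7e-05) and Prss50 (0.0072) passed, and with CLC U counted once in that fit Dll1 (0.0047) and Cited1 (0.0021) passed and Prss50 did not (0.054). Log2 fold changes were 0.65 for Adamts15, 0.48 for Prkcb, 0.37 for Gal3st1, 0.19 for Zkscan2, 0.18 for Rapgef1, 0.14 for Adamts2, -0.14 for Tgfb1 and -0.61 for Magee1, and none of these passed in either limma fit. Prss41 had 13.5 and 21.4 in CLC U and 11.6 and 28.5 in CLC D, and Mageb4 2.53 and 2.37 against 0.97 and 6.33. Both had a mean under 10 over the 8 libraries and were not tested, and Magef1 was not analysed here. Among loci named for the chimeras in the study, Gadd45g and Egr1 were called, Igf2 had 219 and 174 against 338 and 261 (adjusted p = 0.075), and Steap1 had 73.4 and 73.6 against 156 and 186 (adjusted p = 0.060). DESeq2 called Steap1 (adjusted p = 0.0083), though not with CLC U counted once (0.15). That list was chosen on these samples, so its 2 calls of 5 are not independent evidence.

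The lists of cohesin and its regulators (17 tested), clustered protocadherins (7), Hox genes (21), imprinted genes (20), meiosis and germline genes (24), MAGE genes (6), cholesterol synthesis (22), hypoxia and glycolysis (18), proteins encoded by mitochondrial DNA (9) and histones (18) held no gene called by limma. DESeq2 called 1 imprinted gene and 1 histone gene higher, among 175 that it called higher over all tested genes. Of the 3 Gadd45 genes only Gadd45g was called. Cohesin genes had a median log2 fold change of -0.20, with Rad21 at 17707 and 17762 in CLC U and 14187 and 14634 in CLC D.

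Whether called genes carry the chimera at their start sites was examined with the FLAG ChIP-seq of CLC D. Its antibody binds the tag of the chimera, which the endogenous CTCF lacks. The study found that CTCF and CLC interact, and proposes that this could explain CLC at CTCF-only sites with Dox. Sites may therefore include some that the chimera reached through CTCF, which was not tested. The authors listed 9867 and 13583 peaks in its replicates on chromosomes 1 to 19 and X, and regions with a peak in both gave 7599 sites, of which 22.9% had their middle within 3 kb of a start site. Of 89 called genes found in the annotation, 9 had such a site, or 10.1% (95% exact binomial interval 4.73% to 18.3%). Of 15016 tested genes 7.06% had one, which lies within that interval. For genes called higher it was 6 of 52 and for genes called lower 3 of 37. Most called genes thus had no site of CLC at their starts in these lists. The peak lists carry no read totals, so the ChIP depth behind them is unknown.

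The 9 genes were Ctcfl, Trp73, Wnt7b, Gadd45g, Egr1 and 5830418P13Rik, which were higher in CLC D, and Lefty2, Apobec3 and Notum, which were lower. At the site of Apobec3, which encodes a cytidine deaminase against retroviruses, the -log10 q was 31.4 and 27.1 in the replicates, the highest of the 9, and the gene fell from 2732 and 2762 normalized reads to 1399 and 1314. At that of Wnt7b it was 2.10 and 3.96. Of these sites, 8 overlapped a CTCFL D site, 7 a CTCF ID site and 8 a CLC ID site. Over all CLC D sites the shares were 66.8%, 59.9% and 64.5%. Those of Ctcfl and Trp73 overlapped CTCFL D and not CTCF ID. A RAD21 peak of CLC D overlapped the site of Lefty2 in replicate 1 only and those of Gadd45g and Trp73 in replicate 2 only. Over all CLC D sites the share with a RAD21 peak was 10.9% in replicate 1 and 15.6% in replicate 2. 5830418P13Rik is annotated as antisense, and whether its reads were counted by strand is not stated; it had 61.6 and 79.5 in CLC U and 256 and 228 in CLC D.

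In 4 of the 9 sites the CTCF core was found as CC, 3 bases of any kind, AG, 2 bases of any kind and GGC, on either strand. Matches at the site of Egr1 were not counted, so whether that site holds the core is not given. The count of 4 is therefore not compared with the larger sets. The share with the core was 44.5% of all 7599 CLC D sites, 57.1% of the 1737 at start sites and 10.3% of the 7599 windows moved by 10 kb. These 4 matches are shown because they lie in sites of the chimera at called genes, with the core in capitals and read 5′ to 3′ along its own strand in GRCm38.
Ctcfl, chr2:173119470-173119499, plus strand: gtcccaggaCCCCAAGGGGGCgctggagtc
Gadd45g, chr13:51845652-51845681, plus strand: ctaggtcggCCGGTAGGCGGCgccctggga
Trp73, chr4:154095748-154095777, minus strand: ttcctgaggCCAGTAGGAGGCagagtcact
Notum, chr11:120659086-120659115, plus strand: caccgattcCCCAGAGGTGGCgacagcggg
The middle of the site lies at -6 bp from a start of Ctcfl and at -1143 bp from one of Gadd45g, where a minus means upstream. It lies at 1478 bp from a start of Trp73 and at 1421 bp from one of Notum. A match to these letters is a description and not a measured contact.

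Dox was also given to cells of this line whose CTCF had been degraded, in 4 libraries that the comparison of U with D does not use. From CLC I to CLC ID, 177 genes were called higher (1.15%) and 122 lower (0.795%). Without CLC I replicate 1 they were 472 and 165, and without CLC ID replicate 2 they were 46 and 14. Of the 54 genes called higher in D over U, 4 were also called higher in ID over I and 10 were called lower, and their median log2 fold change was -0.54. Of the 38 called lower, 0 were called lower and 9 called higher, with a median of 0.72. The direction was the same in both comparisons for Ctcfl, at 5.16, Rapgef4, at 3.71, or Egr1, at 3.62.

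Several genes show these opposite changes plainly. Tap1 had 732 and 775 normalized reads in CLC I and 203 and 180 in CLC ID, so Dox took it from 64.2 and 56.9 up to 264 and 216 beside CTCF and down without it. Dusp8 had 93.0 and 78.9 in CLC I and 22.6 and 30.1 in CLC ID, which did not pass on its own (adjusted p = 0.015 from limma). Lrrn2, which encodes a leucine-rich repeat protein of neurons, had 674 and 648 in U, 159 and 196 in D, 237 and 206 in I, and 771 and 738 in ID. Myc stood at 96.6 and 114 in I and at 194 and 188 in ID. For Tap1, Dusp8, Lrrn2 and Myc the difference between the 2 Dox effects passed (adjusted p = 0.00021, 0.00050, 0.00021 and 0.00035 from limma). These genes were chosen on calls in D over U, which is part of that difference, so these p-values are not independent evidence.

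Over all genes, the effect of Dox differed with and without IAA in 932 (6.08%), 497 more positive (3.24%) and 435 more negative (2.84%) with IAA. Counting CLC U once left 130, and leaving out 1 library gave between 127 (without CLC U replicate 2) and 1702 (without CLC I replicate 1). Since the 92 genes were selected on D over U, which is part of this contrast, their share in it is not read here. Fos stood at 498 and 457 in CLC I and Gadd45g at 85.0 and 97.5. D and I were both compared with the same U libraries, and the values are given side by side only.

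**Figure D4:**
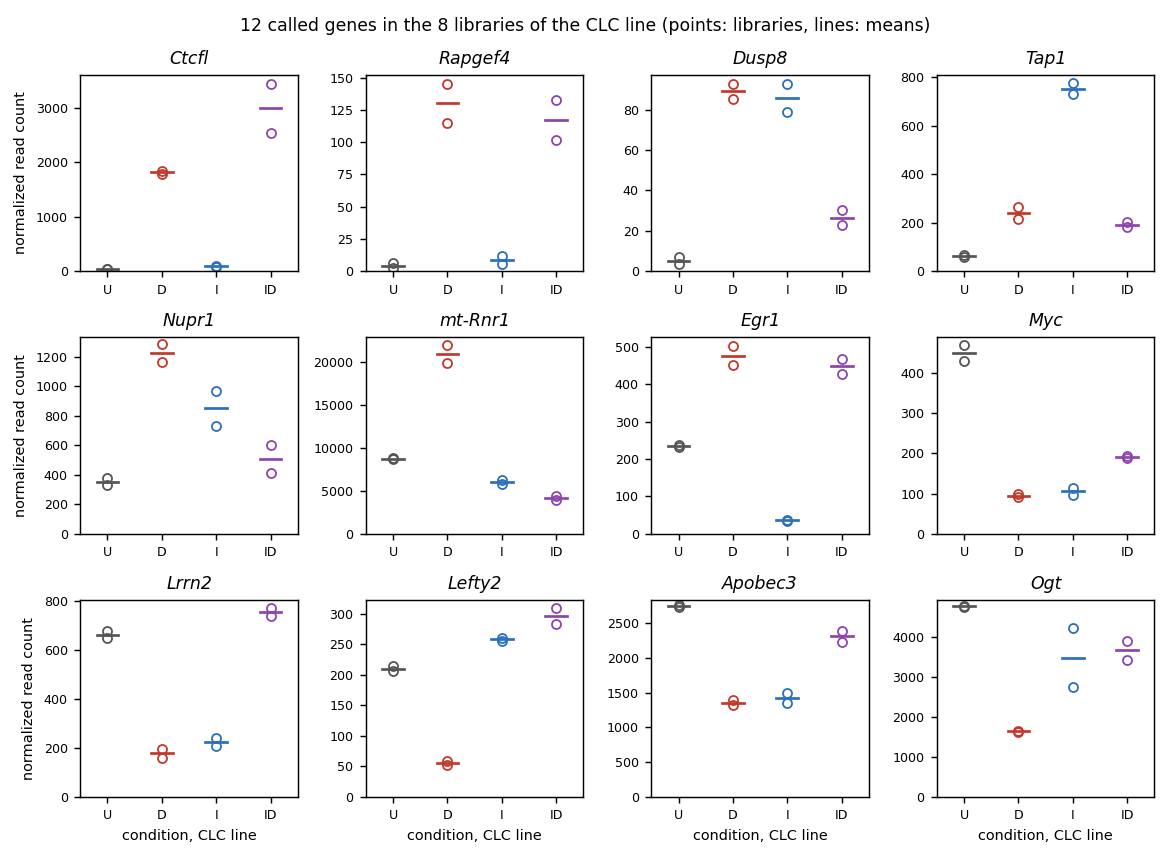
Normalized read counts of 12 called genes in CLC U, D, I and ID, with 1 point per library and a line at the mean of 2. Ctcfl and Rapgef4 are high in both groups with Dox, while Dusp8, Tap1 and Lrrn2 move in opposite directions from U to D and from I to ID.

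The same induction was done in lines with other transgenes, with their own untreated libraries. LCL, the reverse chimera, has CTCF zinc fingers between CTCFL terminal regions, and the other lines carry intact CTCFL or CTCF. In the libraries labelled CTCF, the reads of Ctcf did not rise with Dox (log2 fold change -0.33, adjusted p = 0.010 from limma), so the gene's level does not check that label. Ctcfl changed by 3.62 in LCL, 5.30 in the CTCFL line and -0.56 in the CTCF line. In 1 fit over all 38 libraries and 16480 genes, Dox called 296 genes higher (1.8%) and 165 lower (1%) in LCL. It called 590 (3.58%) and 476 (2.89%) in the CTCFL line, and 40 (0.243%) and 29 (0.176%) in the CTCF line. In this fit, with both untreated libraries, CLC had 245 higher and 96 lower, against 54 and 38 in the fit of its own line. Libraries of CLC and LCL share a style of label in the deposited table, and those of the CTCFL and CTCF lines share another. Whether lines were grown or sequenced together is not stated, so line and batch cannot be told apart. Whether likeness of CLC to LCL, or difference from the CTCFL and CTCF lines, follows that split was not tested. Changes within a line are compared, from untreated levels that can differ between lines.

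In LCL most of these genes had the same sign. Of the 54 called higher, 49 had a positive fold change in LCL (90.7%, against 52.9% of all genes) and 23 were called higher, with a median log2 fold change of 1.00. Of the 38 called lower, 38 had a negative one (100%, against 47.1%), 14 were called lower, and the median was -0.95. In the CTCFL line the medians were 0.44 and -0.32, and 14 and 3 were called in the same direction, with 1 and 3 called in the opposite one. In the CTCF line the medians were 0.35 and -0.23, and 4 and 2 were called in the same direction.

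Rapgef4 was the only called gene that passed in all 3 other lines, with log2 fold changes of 5.16 in LCL, 2.74 in the CTCFL line and 3.38 in the CTCF line. Duox1, an enzyme that makes hydrogen peroxide, passed in the CTCFL and CTCF lines (2.57 and 2.13) and had 1.28 in LCL. Lockd and Trim54 also passed in the CTCF line (1.39 and 1.23), as did Myc and Lefty2 among the genes that fell (-1.36 and -1.34). These 6 genes passed with Dox in libraries that hold no chimera. The mitochondrial ribosomal RNA mt-Rnr1, named after its values were seen, went from 8786 and 8669 to 21961 and 19925 in CLC, with log2 fold changes of 1.26 in CLC, 1.08 in LCL, 1.57 in the CTCFL line and 0.94 in the CTCF line.

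**Figure D5:**
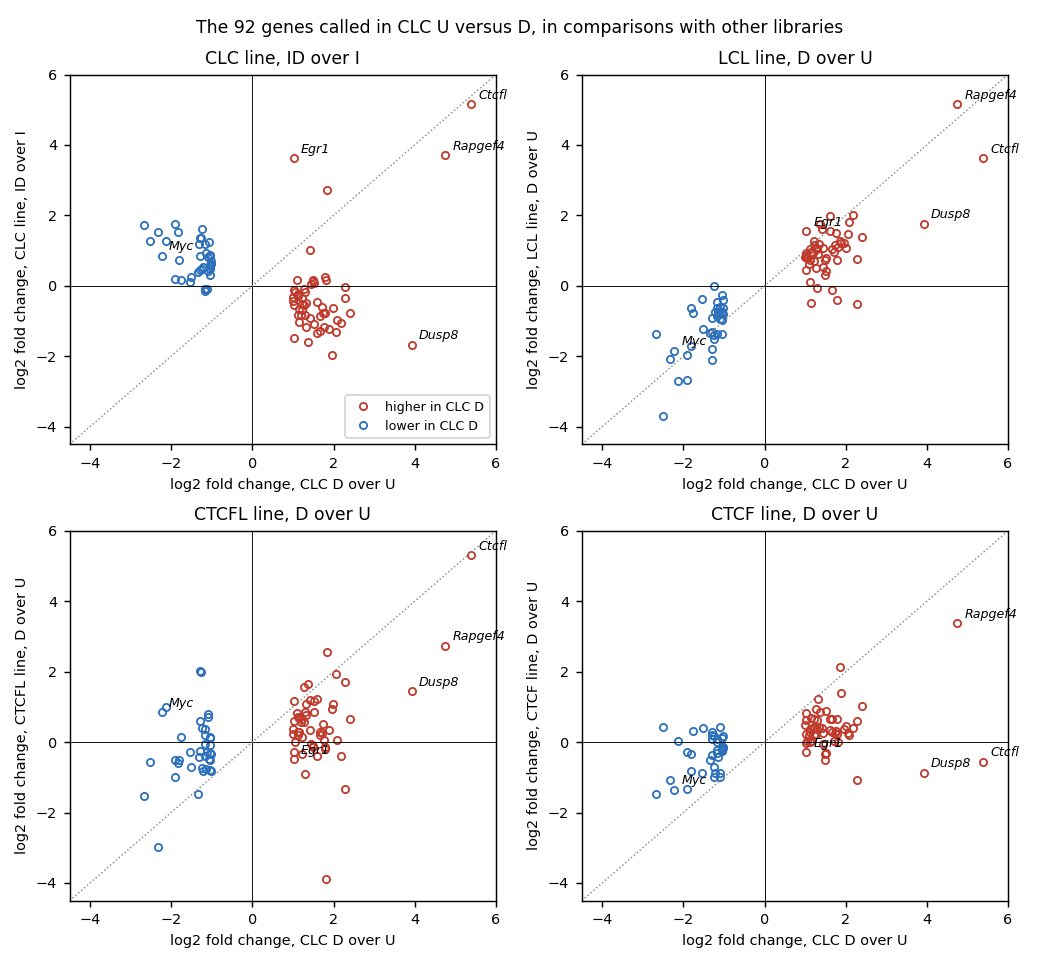
Log2 fold change of the 92 called genes in CLC D over U (horizontal axes) against CLC ID over I and against D over U in the LCL, CTCFL and CTCF lines (vertical axes). Red circles were called higher and blue ones lower in CLC; in LCL all 38 lower genes lie below 0, while in ID over I most genes lie on the opposite side of 0.

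The differences between lines were tested directly. The effect of Dox differed between CLC and LCL in 57 genes (0.346%), between CLC and the CTCF line in 138 (0.837%), and between CLC and the CTCFL line in 834 (5.06%). Counting CLC U once gave 28, 63 and 560. Leaving out any 1 library of CLC gave 30 to 79, 72 to 127 and 608 to 789.

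Gadd45g separated the chimeras, with a log2 fold change of 2.27 in CLC and -0.52 in LCL, a difference of 2.79 (standard error 0.32, adjusted p = 3.7e-06 from limma), and it was 1.72 in the CTCFL line. Dusp8 rose by 3.92 in CLC, 1.77 in LCL and 1.45 in the CTCFL line, and its value in the CTCF line was -0.87. Untreated means of Dusp8 were 5.2 in CLC, 6.9 in LCL, 81.4 in the CTCFL line and 181 in the CTCF line. With Dox they were 89, 28.1, 222 and 99.3. Those of Gadd45g were 19.6 in CLC, 69.2 in LCL and 571 in the CTCFL line, and with Dox 94.4, 48.8 and 1878. Gadd45g, Dusp8, Myc and Notum were chosen on calls in CLC D over U, which is part of these differences. Against CTCFL, Myc differed in sign, with -2.23 in CLC and 0.85 in the CTCFL line (difference -3.09, standard error 0.34, adjusted p = 7.1e-08 from limma). Its mean went from 450 to 94.9 normalized reads in CLC and from 54.8 to 98.8 in the CTCFL line. The lines thus differed in Myc when untreated and stood close together with Dox. Notum differed by -3.26, with -1.25 in CLC and 2.00 in the CTCFL line. Its untreated means were 177 in CLC and 31.6 in the CTCFL line, and with Dox they were 73.4 and 120. Among testis genes, Stra8 differed by -1.09, Dll1 by -1.73, Prss50 by -2.08 and Tgfb1 by -1.95, each with a smaller value in CLC than in the CTCFL line and each past the threshold.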

How the data were processed

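RNA-seq of polyadenylated RNA was deposited as 1 table of 52459 genes and 38 libraries. Per the methods, reads were aligned with STAR and normalized with DESeq2. The submitters' processing notes also list Trim Galore 0.4.4, Bowtie 2, SAMtools 1.3, HTSeq and deepTools without roles, and the tool that counted the reads is not given in the sources used here. The authors divided gene counts by 1 size factor per library, which gives a signal (normalized read count) rounded to 2 decimals. Whole reads were recovered from 36 libraries, with 100% of low values whole within 0.1. All 38 per-sample columns were used, and columns not used numbered 0. For FLAG and RAD21 ChIP-seq, the authors deposited peaks called by MACS per sample on GRCm38/mm10, with a -log10 q-value and a fold enrichment, the ratio over local background. Only the -log10 q is printed.

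Values were tested as log2(value + 1) with limma 3.58.1 (trend) in R 4.3.3, in 1 fit of the 8 CLC libraries over genes with a mean of at least 10, and between lines in 1 fit of all 38 libraries. P-values were adjusted by Benjamini-Hochberg over all genes tested, and a call needed a change over 1 on the log2 scale with an adjusted p below 0.01. Fold changes on this scale understate the change of low genes. Recovered reads were also tested by DESeq2 1.42.0 and by the quasi-likelihood test of edgeR 4.0.16. Other alternatives were other pseudocounts, filters, TMM factors, sets of libraries, weights and leaving out each library. Counting CLC U once, leaving out CLC I, array weights and the crossed block were chosen after seeing the data. The scripts were tested on simulated data. Peaks present in both replicates (1 bp or more) were merged into sites and assigned to GENCODE start sites within 3 kb.

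Named genes are Ctcf and Ctcfl, the 12 largest rises and falls among called genes with established symbols, called list members, the CTCFL target and chimera locus lists whole, and up to 10 called genes with a site at a start. A few named genes are not reported here. The members and lists were chosen with earlier results of these data known. Intervals are exact binomial and cover counting error only.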

Additional observations from a re-analysis of the deposited data

Results flagged for a closer look

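Each result here is a difference between Dox effects that passed its own test, on the log2 scale, from limma. Apart from Ctcfl and Adamts2, the genes named here were chosen on calls in CLC D over U, which is part of each difference. Their p-values are therefore not independent evidence. The Dox effect in the CLC line differed with and without IAA in 932 genes, and the largest differences among the named genes (with IAA minus without) were -5.60 for Dusp8, 4.41 for Gpr83, -3.94 for Tap1, 3.86 for Samd9l and 3.77 for Nt5e. Dusp8 and Tap1 also passed with CLC U counted once (adjusted p = 0.0052 and 0.0047) and Gpr83, Samd9l and Nt5e did not (adjusted p = 0.013, 0.014 and 0.018).

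Between CLC and the CTCFL line 834 genes differed, with 3.62 for Sla, -3.26 for Notum, -3.14 for Cttnbp2, -3.09 for Myc and -2.97 for Adamts2 (CLC minus CTCFL). All 5 passed with CLC U counted once. Adamts2, which encodes a procollagen protease, changed by 0.14 in CLC and by 3.12 in the CTCFL line.

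Between CLC and LCL 57 genes differed, with 2.79 for Gadd45g, 2.16 for Dusp8, 1.77 for Ctcfl, -1.18 for Ogt and 1.10 for Atf3. Gadd45g and Ctcfl also passed with CLC U counted once, and Dusp8, Ogt and Atf3 did not (adjusted p = 0.028, 0.027 and 0.024). Ctcfl reads come from the zinc fingers in CLC and from the terminal regions in LCL, so its difference compares different parts of the gene.

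Between CLC and the CTCF line 138 genes differed, with 5.96 for Ctcfl, 4.79 for Dusp8, 3.35 for Sla, -2.17 for Cttnbp2 and -2.07 for Arhgef15. Sla did not pass with CLC U counted once (adjusted p = 0.026), and the other 4 did.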

How the results depend on the processing

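Counts of called genes differed between settings. For D over U, against 54 higher and 38 lower, they were 21 and 21 with no filter on low values, 211 and 94 with the 2 groups alone, 245 and 96 with all 4 lines, 116 and 80 without CLC I, 291 and 151 with array weights and 175 and 83 with DESeq2. Counting CLC U once gave 1 and 0 with limma, 1 and 0 with edgeR, and 104 and 45 with all 4 lines. Leaving out 1 library gave 1 to 2 higher and 0 lower. By limma, 4513 genes had an unadjusted p under 0.05.

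For ID over I, against 177 and 122, they were 135 and 69 with no filter, 3 and 0 with the 2 groups alone, 259 and 361 with all 4 lines, 117 and 35 with array weights and 259 and 224 with DESeq2. Counting CLC U once gave 97 and 46, 93 and 52 with edgeR, and 255 and 352 with all 4 lines. Leaving out 1 library gave 46 to 472 higher and 14 to 165 lower. The 932 genes that differed with IAA became 1564 with all 4 lines, 130 with CLC U counted once, 173 with edgeR in that setting, and 127 to 1702 without 1 library. With CLC U counted once, CLC differed from LCL in 28 genes and from the CTCF line in 63, and leaving out 1 library gave 30 to 79 and 72 to 127. The cause was not tested.

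Same-numbered libraries of D and U did not deviate together (correlation -0.027), and those of ID and I tended to deviate in opposite directions (-0.25). The libraries of CLC U differed by little more than counting error, so the first value cannot show whether the numbers pair D with U. With the replicate block, D over U gave 14 and 8, ID over I 113 and 51, and the IAA difference 513. The crossed block gave 210 and 154 for ID over I.

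The promoter share of 10.1% was 3.37% with a window of 1 kb and 23.6% with CLC ID sites, against 4.07% and 21.1% of tested genes. Of 882 values for 47 named genes under other settings, 632 kept direction and side of the threshold, 239 no longer passed, 10 passed only there, and 1 changed sign, Adamts2, at -0.044 without CLC U replicate 1 and up to 0.67 without 1 of the other libraries. Low genes are limited by depth.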
